A study of Mus musculus with 8 samples.

Results

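The genes described here encode 8 enzymes that macrophages use to turn arginine into nitric oxide, urea, ornithine and polyamines, and to make itaconate from a citric acid cycle intermediate. They were taken by name from the deposited table of mouse transcript counts: *Nos2*, *Arg1*, *Arg2*, *Ass1*, *Gch1*, *Acod1*, *Odc1* and *Sat1*. Each of the 8 was found among the 50615 genes of the table, and each passed the filter of at least 10 counts over the 8 libraries that left 17625 genes to be tested. The cells were macrophages cultured for 6 days from the bone marrow of C57BL/6 mice (BMDMs) in the presence of 20 ng/ml M-CSF, the growth factor that drives this lineage. All mice were *Ncoa6* fl/fl. Those without Cre gave the *Ncoa6*-sufficient cells, called WT in the labels, and those with Cre in the myeloid gene *Lyz2* (LysM) gave the *Ncoa6*-KO cells. Resting cells received medium only. Stimulated cells were exposed to 100 ng/ml LPS, a bacterial membrane component, over 4 h, and monosodium urate (MSU) crystals, the crystals of gout, followed at 200 µg/ml over 2 h. There were 2 libraries in each of the 4 groups, from different mice whose ages the sources used here do not give.

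Inducible nitric oxide synthase (*Nos2*) oxidises arginine to nitric oxide and citrulline and needs the cofactor tetrahydrobiopterin, whose synthesis starts with GTP cyclohydrolase 1 (*Gch1*). Argininosuccinate synthase 1 (*Ass1*) begins the return of citrulline to arginine, while the arginases *Arg1* and *Arg2* split arginine into urea and ornithine, the substrate from which ornithine decarboxylase (*Odc1*) makes putrescine, and spermidine/spermine N1-acetyltransferase 1 (*Sat1*) marks the larger polyamines for breakdown or export. Aconitate decarboxylase 1 (*Acod1*, also called *Irg1*) makes itaconate from cis-aconitate, and macrophages exposed to bacterial products are known for making both nitric oxide and itaconate.

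RefSeq sequences upstream of the transcription start (GRCm38.p6) were at hand for 5 of the 8 genes, *Ass1*, *Gch1*, *Acod1*, *Odc1* and *Sat1*, and were not read here for *Nos2*, *Arg1* and *Arg2*. The 3 stretches below come from the genes among these 5 with a match to a letter pattern searched here, and *Odc1* and *Sat1* had none. All 3 genes rose with LPS + MSU, as did *Sat1*, and *Acod1* and *Ass1* also differed between the genotypes in medium. They are written 5′ to 3′ along the strand of the gene, and capitals mark a match to TATAAA on either strand (*Acod1*, *Gch1*) or to the E-box CACGTG (*Ass1*).
Acod1: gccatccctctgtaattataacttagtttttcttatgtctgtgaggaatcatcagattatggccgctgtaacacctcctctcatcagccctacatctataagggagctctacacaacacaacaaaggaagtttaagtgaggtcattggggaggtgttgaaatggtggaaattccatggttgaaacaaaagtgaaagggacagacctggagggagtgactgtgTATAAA
Gch1: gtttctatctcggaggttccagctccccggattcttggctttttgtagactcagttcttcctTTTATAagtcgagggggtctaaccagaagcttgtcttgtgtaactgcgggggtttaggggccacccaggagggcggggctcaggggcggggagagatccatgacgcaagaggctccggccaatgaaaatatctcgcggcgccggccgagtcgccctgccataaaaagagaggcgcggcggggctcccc
Ass1: cgcgcccgtcccCACGTGtcccaggttcct
The *Acod1* stretch is chr14:103046762-103046989 on the forward strand, from 250 to 23 bases before the RefSeq start, and its last 13 bases lie inside the gene as GENCODE draws it. The *Gch1* stretch is chr14:47189414-47189663 on the reverse strand and reaches to the base before the start. The *Ass1* stretch of 30 bases is chr2:31470222-31470251 on the forward strand, from 48 to 19 bases before the RefSeq start and inside the GENCODE gene. TATAAA lay on the forward strand from -28 to -23 in *Acod1* and on the opposite strand from -188 to -183 in *Gch1*, and was in 13.6% of the 32851 RefSeq windows of 300 bases. CACGTG lay from -36 to -31 in *Ass1* and was in 7.15% of the windows. ACGTG, which is part of the *Ass1* E-box, also matched *Acod1* on the opposite strand from -18 to -14, just past the stretch shown, and was in 19.6% of the windows. None of the 5 windows held TTCNNNGAA (GAS, in 8.3% of all windows) or TTGCNNAAT (C/EBP, 2.4%), read on both strands. The ISRE pattern searched (3.44%) and both NF-κB patterns searched (1.63% and 4.59%) were also without a match on either strand. Other forms of the ISRE and of the NF-κB site were not searched. Their absence from these windows is therefore not shown. Of the 250 bases before the start, G and C made up 44.4% in *Acod1*, 59.2% in *Gch1*, 75.6% in *Ass1*, 80.0% in *Odc1* and 59.6% in *Sat1*, with a median of 52.4% over all windows. A match of letters is a description and not a binding site.

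Expected counts summed to between 25281955 and 33673552 per library. Counts of *Ncoa6* over the whole gene, of which the knockout removes 1 exon, were left at 48.2% in resting and at 44.1% in stimulated *Ncoa6*-KO BMDMs (edgeR adjusted p = 0.00236 and 0.00189). The macrophage markers *Adgre1*, *Csf1r*, *Cd68*, *Lyz2*, *Itgam*, *Mertk* and *Cd14* were present in every library, and their summed level ran from 16390 to 18935 CPM (counts scaled by the library total) in resting *Ncoa6*-sufficient and from 10879 to 12251 in resting *Ncoa6*-KO BMDMs. In stimulated cells the sums were 13048 to 14198 CPM and 10132 to 10444 CPM. *Lyz2*, the gene whose locus carries Cre, was at 8920 to 11400 CPM against 4910 to 5450 in resting and at 5850 to 7060 CPM against 3480 to 3560 in stimulated cells. Of 5 T and NK cell markers, *Cd3g*, *Cd8a* and *Nkg7* had no counts in any library and *Cd3e* and *Klrb1c* at most 3. Neutrophil markers summed to 18.8 to 25.9 CPM, with 4 of 7 tested called higher with LPS + MSU in each genotype. Among all genes tested, 24.7% and 25.2% were called higher in those comparisons. Of the endothelial markers *Emcn* was at 0, and *Kdr* went from between 15.2 and 28.6 CPM at rest to between 83.8 and 180 CPM with LPS + MSU. The part of these markers in the results was not tested. Between replicates, the log2 counts of all genes correlated at 0.987 to 0.992 (a correlation across genes, which are not independent replicates). In bulk RNA, more cells with a transcript and more transcript per cell cannot be told apart. In the main fit, the p-values rest on the spread between the 2 libraries of each group, pooled over the 4 groups and moderated across all genes tested. This edgeR fit of the whole table was used because an exact permutation test of 2 libraries against 2 cannot go below p = 0.333.

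Compared per length, *Sat1* and *Odc1* were the most abundant of the 8 transcripts in resting cells, and *Acod1* in stimulated cells, followed by *Nos2* or *Sat1* depending on the transcript length used. Levels were set as TPM, counts divided by the length of the gene's merged exons and scaled to a common total in each library. In *Ncoa6*-sufficient BMDMs with medium alone the levels fell from *Sat1* at 354 ± 16.0 TPM (SD, n = 2) through *Odc1* at 92.5 ± 6.68, *Acod1* at 54.8 ± 1.31, *Ass1* at 30.2 ± 0.0103 and *Gch1* at 8.47 ± 0.852 to *Arg2* at 0.644 ± 0.392, *Nos2* at 0.118 ± 0.134 and *Arg1* at 0.0891 ± 0.00683 TPM. Neighbours in this order did not overlap between their 2 libraries except for *Nos2* and *Arg1*. With LPS + MSU the order was *Acod1* at 6689 ± 395 TPM, *Nos2* at 1096 ± 83.2, *Sat1* at 768 ± 54.2, *Odc1* at 73.5 ± 1.88, *Ass1* at 66.7 ± 3.10, *Gch1* at 64.2 ± 2.84, *Arg2* at 1.10 ± 0.00553 and *Arg1* at 0.118 ± 0.0326. *Ass1* and *Gch1* overlapped there, and *Nos2* and *Sat1* changed places in stimulated cells of both genotypes when the longest annotated transcript stood for the length.

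In *Ncoa6*-KO BMDMs with medium alone, *Ass1* stood above *Acod1*: *Sat1* was at 371 ± 32.1 TPM (SD, n = 2), *Odc1* at 87.3 ± 21.9, *Ass1* at 52.2 ± 5.37, *Acod1* at 23.4 ± 1.85, *Gch1* at 7.87 ± 0.536, *Arg2* at 0.390 ± 0.329, *Nos2* at 0.0429 ± 0.0248 and *Arg1* at 0.0399 ± 0.0564 TPM. With LPS + MSU the levels in *Ncoa6*-KO BMDMs were 6007 ± 229 TPM for *Acod1*, 963 ± 59.2 for *Nos2*, 800 ± 10.5 for *Sat1*, 96.6 ± 17.2 for *Ass1*, 79.2 ± 28.9 for *Odc1*, 58.5 ± 0.368 for *Gch1*, 1.64 ± 0.159 for *Arg2* and 0.121 ± 0.0265 for *Arg1*. *Nos2* and *Arg1* overlapped in resting, and *Ass1* and *Odc1* in stimulated *Ncoa6*-KO BMDMs, and *Odc1* and *Gch1* differed by less than the spread of *Odc1*. *Acod1* held rank 26 among all genes by mean TPM in both stimulated groups, against rank 2390 in resting *Ncoa6*-sufficient and 4889 in resting *Ncoa6*-KO BMDMs.

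**Figure D1:**
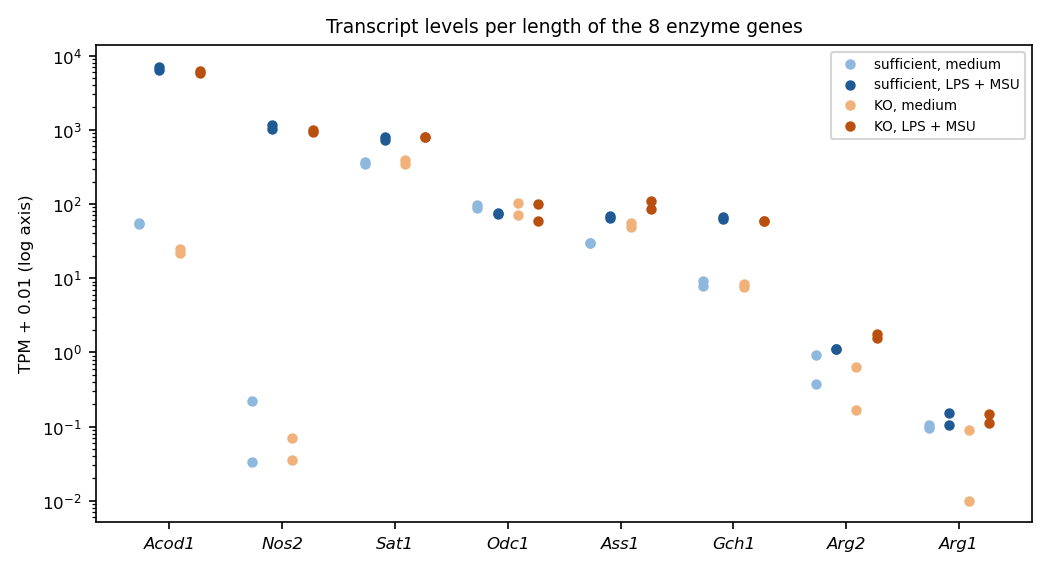
Level per length (TPM, plotted with 0.01 added, log axis) of each of the 8 genes, with 1 point per library and colours for the 4 groups. With merged exons as length, *Acod1* and *Nos2* stand highest with LPS + MSU, *Sat1* and *Odc1* stand highest in medium, and *Arg1* reaches at most 0.141 TPM in any library.

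LPS + MSU raised 5 of the 8 genes in *Ncoa6*-sufficient BMDMs (*Nos2*, *Ass1*, *Gch1*, *Acod1* and *Sat1*) and 6 in *Ncoa6*-KO BMDMs, where *Arg2* passed the test as well. None of the 8 was called lower by edgeR, and all 8 estimates were above 0 with TMM factors. Of all genes tested, 24.7% were called higher in *Ncoa6*-sufficient BMDMs and 25.2% in *Ncoa6*-KO BMDMs, at an adjusted p under 0.05 from edgeR, and 55.2% and 53.1% in either direction. At an unadjusted p under 0.05, 6 and 7 of the 8 passed, against 59.8% and 58% of all genes. The median log2 fold change of the 8 was 1.83 and 2.31, against -0.12 and -0.07 over all genes tested. With genes of at most 3 counts in every library of a group set at their bound, the medians were 1.83 and 2.21. The members' libraries with and without LPS + MSU did not overlap for 8 genes in *Ncoa6*-sufficient BMDMs and 7 in *Ncoa6*-KO BMDMs, where 78.5% and 76.5% of all genes did not. *Arg1* was among them only through the scaling. Before it, stimulated against resting counts were 2 and 3 against 2 and 2 in *Ncoa6*-sufficient BMDMs. In *Ncoa6*-KO BMDMs they were 3 and 2 against 2 and 0. Such counts leave the estimates of *Arg1* without weight. Fold changes depended on the scaling here. Library totals in place of TMM factors moved the median of all genes by -0.66 in *Ncoa6*-sufficient BMDMs and -0.63 in *Ncoa6*-KO BMDMs on the log2 scale, and DESeq2's size factors moved it by 0.11 and 0.06. With library totals, 20.6% and 21.4% of the calls were higher, in place of 44.8% and 47.5%. The 5 and 6 members called with TMM factors were called higher with both other scalings as well, and DESeq2's size factors added *Arg2* in *Ncoa6*-sufficient BMDMs (edgeR adjusted p = 0.0423) and *Odc1* in *Ncoa6*-KO BMDMs (adjusted p = 0.0372).

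**Figure D2:**
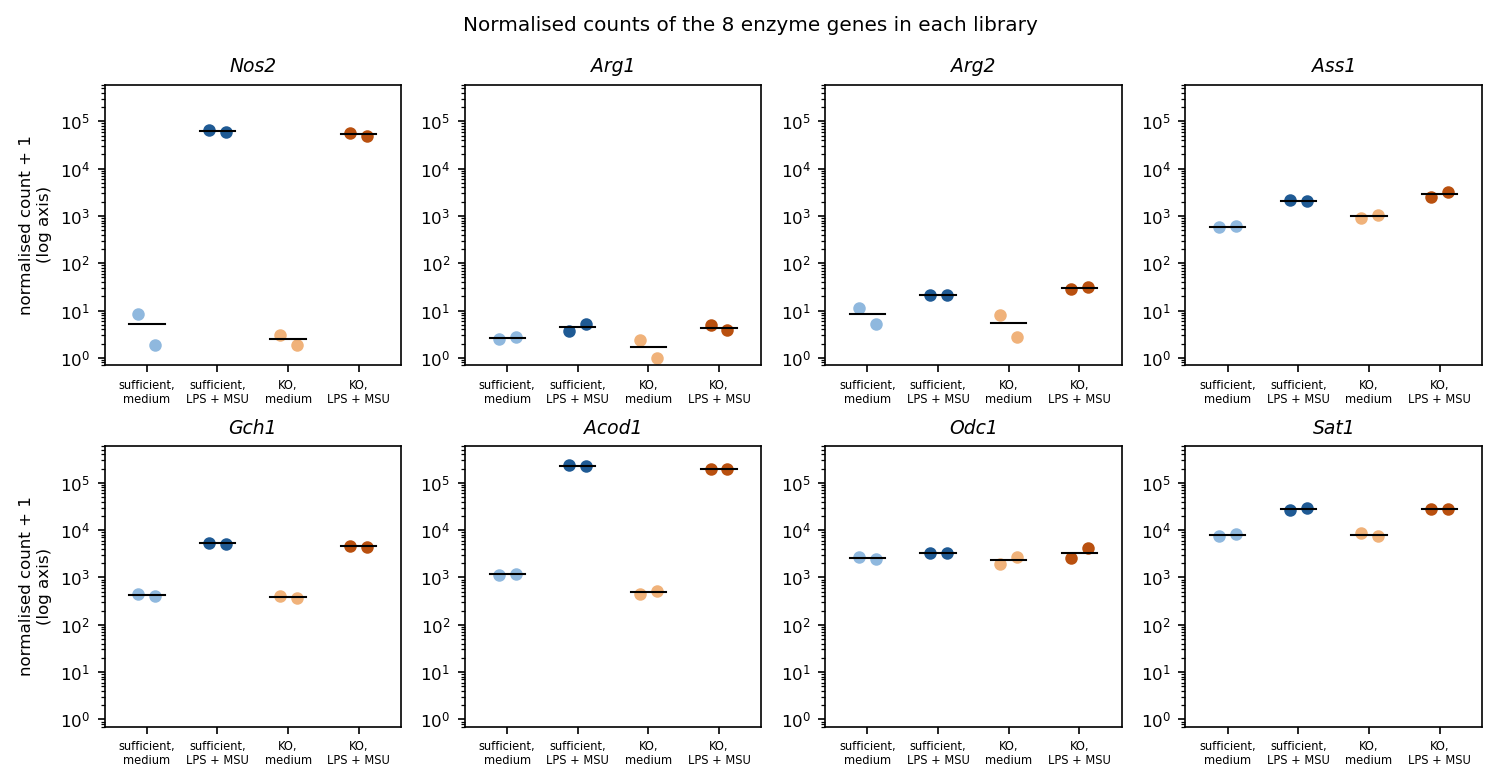
Normalised counts (plotted with 1 added, log axis) of the 8 genes in each library, with 1 point per library and a line at the mean of each group of 2. *Nos2* and *Acod1* rise by orders of magnitude with LPS + MSU, *Gch1*, *Ass1* and *Sat1* rise less, and the points of *Odc1* in *Ncoa6*-KO BMDMs overlap between medium and LPS + MSU.

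*Nos2* (ENSMUSG00000020826, chromosome 11, 78920787 to 78960254, forward strand of GRCm38) was nearly silent in medium, with 10 and 1 counts in the *Ncoa6*-sufficient and 3 and 1 counts in the *Ncoa6*-KO libraries. With LPS + MSU it had 48296 and 43741 counts in *Ncoa6*-sufficient and 42716 and 35680 counts in *Ncoa6*-KO BMDMs. The stimulated libraries of both genotypes lay far above every resting one. Since the resting counts were so few, the change is given as a ratio of summed counts corrected for library size, which was 14417 in *Ncoa6*-sufficient BMDMs (95% counting interval 8057 to 28881) and 34131 in *Ncoa6*-KO BMDMs (13330 to 125270). Both rises were called by edgeR (adjusted p = 2.81e-10 and 2.56e-10), and the intervals of the 2 ratios overlapped. These intervals cover counting error only.

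*Gch1* (ENSMUSG00000037580, chromosome 14, 47153895 to 47189413, reverse strand), which supplies the cofactor of *Nos2*, had 453 and 404 normalised counts in resting and 5438 and 5120 in stimulated *Ncoa6*-sufficient BMDMs. In *Ncoa6*-KO BMDMs it had 403 and 368 and then 4624 and 4470. Resting and stimulated libraries lay far apart in both genotypes. The log2 fold change was 3.62 (SE 0.105, edgeR adjusted p = 7.61e-10) in *Ncoa6*-sufficient BMDMs and 3.56 (SE 0.105, adjusted p = 6.81e-10) in *Ncoa6*-KO BMDMs, and the difference between them was -0.06 (95% interval -0.37 to 0.24, adjusted p = 0.992).

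*Ass1* (ENSMUSG00000076441, chromosome 2, 31470207 to 31520672, forward strand), which feeds citrulline back toward arginine, had 582 and 599 normalised counts in resting *Ncoa6*-sufficient BMDMs and 2182 and 2048 with LPS + MSU. In *Ncoa6*-KO BMDMs the counts were 913 and 1062 at rest and 2565 and 3224 with LPS + MSU. Every stimulated library was above every resting one, and within each condition the knockout libraries were the higher ones. LPS + MSU raised *Ass1* by 1.84 on the log2 scale (SE 0.124, edgeR adjusted p = 2.4e-07) in *Ncoa6*-sufficient BMDMs and by 1.55 (SE 0.121, adjusted p = 8.31e-07) in *Ncoa6*-KO BMDMs.

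The arginases stayed near the floor. *Arg1* (ENSMUSG00000019987, chromosome 10, 24915221 to 24927484, reverse strand), a classic marker of alternatively activated macrophages, had between 0 and 3 counts in each of the 8 libraries, so its fold change with LPS + MSU is not given. *Arg2* (ENSMUSG00000021125, chromosome 12, 79130777 to 79156301, forward strand), the mitochondrial arginase, had 10.5 and 4.30 normalised counts in resting and 20.8 and 20.7 in stimulated *Ncoa6*-sufficient BMDMs. In *Ncoa6*-KO BMDMs it had 6.95 and 1.76 at rest and 27.4 and 30.8 with LPS + MSU. Its log2 fold change was 1.45 (SE 0.586, edgeR adjusted p = 0.0563) in *Ncoa6*-sufficient BMDMs, past the threshold in 10 of the 17 other ways of processing, and 2.64 (SE 0.602, adjusted p = 0.0032) in *Ncoa6*-KO BMDMs. The difference between the genotypes was 1.19 (95% interval -0.69 to 3.07), an interval that holds 0. The exons of *Arg2* overlap those of *Vti1b* and *Gm48780* on the other strand, and *Arg2*, *Ass1* and *Odc1* had counts that were not whole numbers, which RSEM gives where reads are shared with other features. Per length, *Nos2* stood at 960 and 836 times the sum of both arginases in the stimulated *Ncoa6*-sufficient libraries and at 602 and 496 times in the *Ncoa6*-KO libraries, whereas at rest the ratio was between 0.0515 and 0.212 in all 4 libraries.

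*Odc1* (ENSMUSG00000011179, chromosome 12, 17544794 to 17551505, forward strand) had 2647 and 2458 normalised counts in resting and 3347 and 3236 in stimulated *Ncoa6*-sufficient BMDMs, a log2 fold change of 0.37 (SE 0.21, edgeR adjusted p = 0.164). In *Ncoa6*-KO BMDMs the counts were 1912 and 2751 at rest and 2520 and 4168 with LPS + MSU, and these groups overlapped. The log2 fold change there was 0.52 (SE 0.211, adjusted p = 0.0577). With library totals the values turned to -0.30 and -0.11, so no direction is given for *Odc1*. It was called in 6 and 8 of the 17 other ways of processing. Replicate 1 was below replicate 2 in both *Ncoa6*-KO groups. *Srm*, spermidine synthase, showed the same order (368 and 760 normalised counts at rest, 260 and 527 with LPS + MSU), and so did the summed stromal markers (5.61 and 19.6 CPM at rest, 5.57 and 19.8 CPM with LPS + MSU; 15.8 to 21.7 CPM in the *Ncoa6*-sufficient libraries), whose part in the spread of *Odc1* was not tested.

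*Sat1* (ENSMUSG00000025283, X chromosome, 155213132 to 155216449, reverse strand) had 7589 and 8322 normalised counts in resting and 26572 and 29434 in stimulated *Ncoa6*-sufficient BMDMs, with 8547 and 7599 and then 27689 and 27513 in *Ncoa6*-KO BMDMs. Resting libraries of both genotypes overlapped, and so did the stimulated ones. LPS + MSU raised it by 1.82 on the log2 scale (SE 0.115, edgeR adjusted p = 1.42e-07) in *Ncoa6*-sufficient BMDMs and by 1.77 (SE 0.115, adjusted p = 1.81e-07) in *Ncoa6*-KO BMDMs. Per length, *Odc1* stood at 0.241 to 0.284 of *Sat1* at rest and at 0.0896 to 0.103 with LPS + MSU in *Ncoa6*-sufficient BMDMs, and at 0.182 to 0.295 and 0.0741 to 0.123 in *Ncoa6*-KO BMDMs, so *Odc1* stood lower against *Sat1* with LPS + MSU in both genotypes, without overlap between conditions.

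*Acod1* (ENSMUSG00000022126, chromosome 14, 103046977 to 103056573, forward strand) had 1129 and 1201 normalised counts in resting *Ncoa6*-sufficient BMDMs and 239982 and 221288 with LPS + MSU. In *Ncoa6*-KO BMDMs it had 454 and 510 at rest and 192980 and 198673 with LPS + MSU. Both resting knockout libraries lay below both resting *Ncoa6*-sufficient ones, and the stimulated libraries also did not overlap between genotypes. The rise was 198-fold in *Ncoa6*-sufficient BMDMs (log2 fold change 7.63, SE 0.166, edgeR adjusted p = 2.67e-10) and 406-fold in *Ncoa6*-KO BMDMs (8.67, SE 0.174, adjusted p = 1.73e-10).

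**Figure D3:**
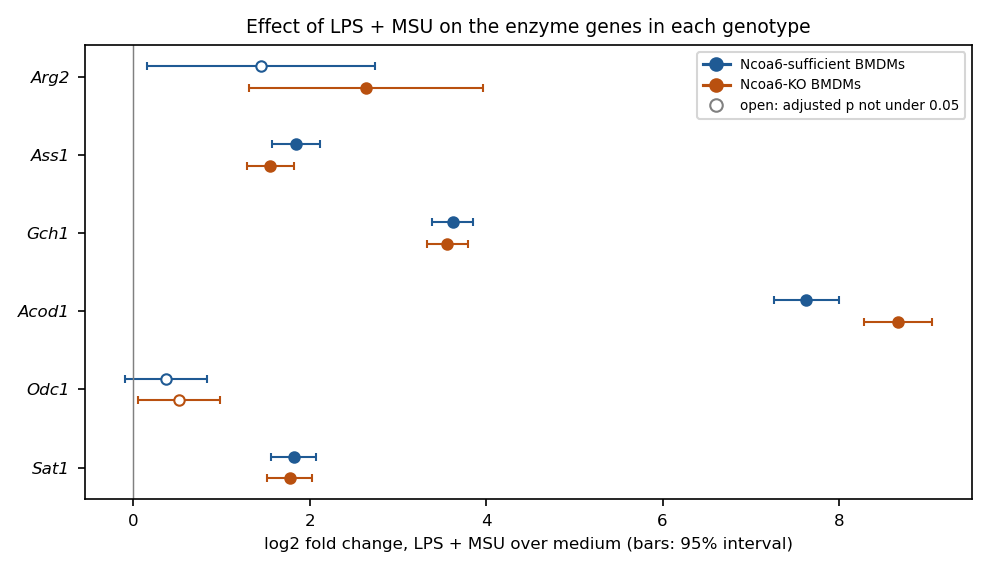
Log2 fold change of LPS + MSU over medium alone in *Ncoa6*-sufficient and *Ncoa6*-KO BMDMs for 6 of the genes, with points at the edgeR estimate and bars for the 95% interval, filled where the adjusted p is under 0.05. *Nos2* and *Arg1* are left out because their resting counts were too few. The intervals of *Ass1*, *Gch1* and *Sat1* overlap between genotypes, and those of *Acod1* (7.63 and 8.67) do not.

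Of 13 tested genes of nitric oxide and tetrahydrobiopterin metabolism outside the members, none was called higher with LPS + MSU, 7 were called lower in *Ncoa6*-sufficient BMDMs and 6 in *Ncoa6*-KO BMDMs. Of all genes tested, 30.5% and 27.9% were called lower. These 7 and 6 were also the counts at an unadjusted p under 0.05, and in either direction DESeq2 called 5 and 4 and limma-voom 7 and 6. The median log2 fold change of the list was -0.38 and -0.51, and with genes of at most 3 counts at their bound -0.22 and -0.02. *Nostrin*, which binds the endothelial synthase, fell by 1.69 on the log2 scale (SE 0.14, edgeR adjusted p = 1.27e-06) in *Ncoa6*-sufficient BMDMs and by 1.33 in *Ncoa6*-KO BMDMs. *Spr*, sepiapterin reductase in the last step of tetrahydrobiopterin synthesis, fell by 1.09 and 0.67, and *Nosip* by 0.79 and 0.51. *Nos3*, the endothelial synthase, was called lower from at most 5.27 normalised counts at rest and none with LPS + MSU. Of the direct partners of *Gch1*, *Pts*, the next enzyme of the path, had log2 fold changes of 0.11 and 0.24 that did not pass the test, and the feedback regulator *Gchfr* had at most 13.1 normalised counts. *Asl*, which follows *Ass1*, fell by 0.38 (adjusted p = 0.00538) in *Ncoa6*-sufficient BMDMs and stood at -0.02 (adjusted p = 0.891) in *Ncoa6*-KO BMDMs. With library totals 10 of the 13 were called lower in each genotype, and with DESeq2's size factors 6 in each and 1 higher in *Ncoa6*-sufficient BMDMs.

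Of 6 arginine transport genes tested, 3 were called higher and 1 lower with LPS + MSU in *Ncoa6*-sufficient BMDMs, and 4 and 1 in *Ncoa6*-KO BMDMs. Over all genes tested, 24.7% and 25.2% were called higher and 30.5% and 27.9% lower. *Slc7a2*, the cationic amino acid transporter that imports arginine for *Nos2*, went from 104 and 92.0 to 5055 and 4872 normalised counts in *Ncoa6*-sufficient BMDMs and from 115 and 84.3 to 3976 and 3621 in *Ncoa6*-KO BMDMs. Its log2 fold change was 5.66 (SE 0.147, edgeR adjusted p = 3.75e-10) and 5.23 (SE 0.144, adjusted p = 5.32e-10). *Slc7a7*, a subunit of the exchanger y+LAT1, rose by 1.67 and 1.64, and its partner *Slc3a2* by 0.96 and 1.03. *Slc7a6*, which encodes the related y+LAT2, fell by 1.83 and 1.52. *Slc7a1*, the other main arginine importer, stood at -0.12 and 0.06 and did not pass the test. With library totals, 3 were called higher and 2 lower in each genotype.

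Among genes that lead from ornithine to proline and from arginine to creatine, 8 of 11 listed were tested. Of these, 7 were called lower in *Ncoa6*-sufficient BMDMs and 5 in *Ncoa6*-KO BMDMs and none higher by edgeR. Over all genes tested, 30.5% and 27.9% were called lower and 24.7% and 25.2% higher. The counts at an unadjusted p under 0.05 were the same, and in either direction DESeq2 called 5 and 3 and limma-voom 6 and 5. *Prodh*, proline dehydrogenase, fell by 1.21 and 0.89 on the log2 scale, and *Aldh18a1*, the first enzyme of proline synthesis from glutamate, by 1.20 and 1.23. *Oat*, ornithine aminotransferase, which draws on the ornithine that arginases make, fell by 0.40 (edgeR adjusted p = 0.00858) and 0.32 (adjusted p = 0.0302). *Gamt*, of creatine synthesis, fell by 0.67 in *Ncoa6*-sufficient BMDMs and stood at -0.10 (adjusted p = 0.552) in *Ncoa6*-KO BMDMs. With library totals 8 and 7 were called lower, and with DESeq2's size factors 5 and 4.

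Of 15 polyamine genes tested, 4 were called higher and 5 lower with LPS + MSU in each genotype. The shares of all genes tested were 24.7% and 25.2% higher and 30.5% and 27.9% lower. *Paox*, the oxidase that acts on the acetylated polyamines *Sat1* makes, fell by 1.81 (SE 0.131, edgeR adjusted p = 4.16e-07) and 1.59 on the log2 scale, *Sat2* by 1.31 and 0.89, *Atp13a2*, a lysosomal polyamine exporter, by 1.18 and 0.73, and *Amd1*, which supplies the aminopropyl groups, by 1.00 and 0.74. *Amd1* has a near-identical copy, *Amd2*, with which reads may be shared. *Smox*, spermine oxidase, rose by 0.53 and 0.73, *Dhps* by 0.56 and 0.49, *Eif5a* by 0.44 and 0.48 and *Sms*, spermine synthase, by 0.37 and 0.40, but with library totals *Sms*, *Dhps* and *Eif5a* turned to values below 0 in both genotypes and *Smox* in *Ncoa6*-sufficient BMDMs, and none of the 15 was called higher. *Srm* stood at -0.52 in both genotypes (adjusted p = 0.212 and 0.213), and the regulators of *Odc1* protein, *Oaz1* and *Azin1*, between -0.02 and 0.10, with no call.

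Of 21 tested genes of the citric acid cycle and itaconate metabolism other than *Acod1*, 3 were called higher and 4 lower with LPS + MSU in *Ncoa6*-sufficient and 3 and 3 in *Ncoa6*-KO BMDMs. In either direction, 55.2% and 53.1% of all genes tested were called. *Idh1*, cytosolic isocitrate dehydrogenase, fell by 1.28 (SE 0.119, edgeR adjusted p = 3.29e-06) and 1.14 on the log2 scale and *Aco1*, the cytosolic aconitase, by 0.62 and 0.42. *Slc25a10*, the mitochondrial dicarboxylate carrier, rose by 0.45 and 0.58, *Slc25a1*, the citrate carrier, by 0.43 and 0.47 and *Cs*, citrate synthase, by 0.42 and 0.36. These 3 turned to values below 0 with library totals, where 20 and 19 genes were called lower and none higher, and with DESeq2's size factors 5 were called higher in each genotype and 3 and 2 lower. *Clybl*, which degrades the itaconate product citramalyl-CoA, stood at -0.13 and -0.05, with no call.

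**Figure D4:**
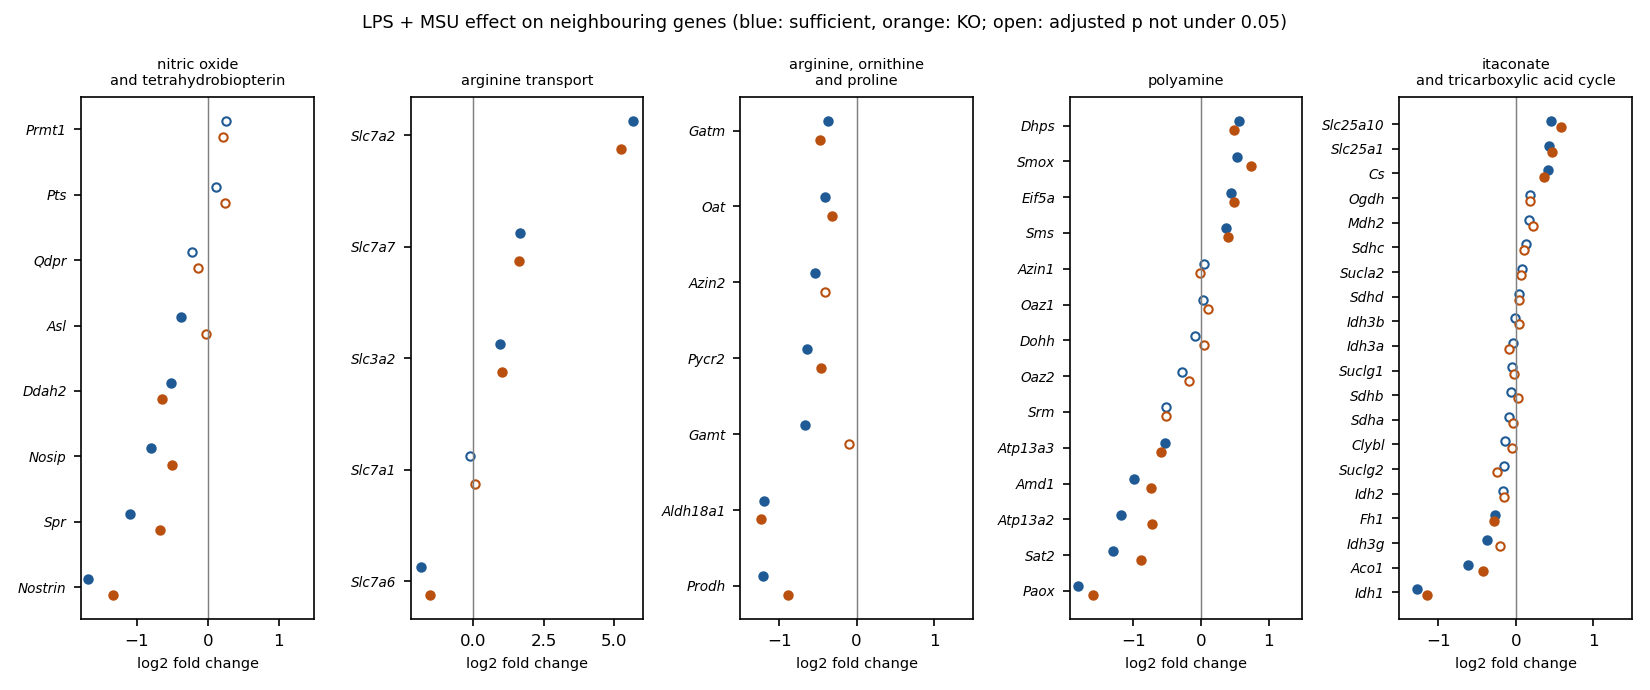
Log2 fold change of LPS + MSU over medium for the genes of 5 pathway lists with a mean of at least 30 normalised counts over the 8 libraries, less those not reported here, in *Ncoa6*-sufficient (blue) and *Ncoa6*-KO (orange) BMDMs, filled where the edgeR adjusted p is under 0.05. *Slc7a2* stands out at 5.66 and 5.23, and most of the citric acid cycle genes lie between -0.5 and 0.5.

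Transcription factors named for these enzymes mostly rose. For them and for the markers below, the shares of all genes tested were 24.7% and 25.2% called higher and 30.5% and 27.9% lower. Of 10 transcription factors tested, 9 were called higher and 1 lower in *Ncoa6*-sufficient and 8 and 1 in *Ncoa6*-KO BMDMs. *Stat6*, which drives *Arg1* in alternative activation, was the gene that fell, by 0.96 and 0.76 on the log2 scale (edgeR adjusted p = 5.5e-06 and 4.01e-05). *Irf1* rose by 3.17 and 3.92, *Nfkb1* by 3.01 in both genotypes, and *Myc*, known to act on *Odc1*, by 2.26 and 2.61. With library totals 8 and 7 were called higher. Of 9 tested markers of alternative activation, 5 were called higher and 4 lower in *Ncoa6*-sufficient and 4 and 4 in *Ncoa6*-KO BMDMs. The chemokine gene *Ccl22* went from at most 9.46 normalised counts at rest to between 2001 and 4012 with LPS + MSU, *Ccl17* from at most 0.878 to between 76.2 and 166 and *Ccl24* from at most 6.75 to between 22.4 and 60.1. *Pparg*, a nuclear receptor of alternative activation, fell by 2.28 and 2.50 on the log2 scale. With library totals 3 and 4 of these markers were called higher.

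Between the genotypes, 2 of the 8 genes were called in resting cells, in opposite directions, and none with LPS + MSU. Only the *Ncoa6*-KO mice carried Cre in *Lyz2*, so loss of *Ncoa6* and the Cre insertion cannot be told apart. In medium alone *Acod1* was lower and *Ass1* higher in *Ncoa6*-KO BMDMs. Of all genes tested, 1.3% were called lower and 0.573% higher in that comparison, and 1.88% in either direction. With LPS + MSU 3.59% were called, 1.96% as higher. None of the 8 passed there with edgeR, DESeq2 or limma-voom at an adjusted p under 0.05, and 2 of them (*Ass1* and *Gch1*) had an unadjusted p under 0.05 with edgeR.

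*Acod1* in resting *Ncoa6*-KO BMDMs was at 482 ± 39.8 normalised counts (SD, n = 2), against 1165 ± 51.0 in *Ncoa6*-sufficient BMDMs. The log2 fold change was -1.27 (SE 0.132, 95% interval -1.56 to -0.98, edgeR adjusted p = 0.00198), which left 41.4% of the counts, and the call held in all 17 other ways of processing. With LPS + MSU the means were 195827 ± 4026 and 230635 ± 13219, a log2 fold change of -0.24 (95% interval -0.51 to 0.04, adjusted p = 0.37). The difference of the knockout effects was 1.04 (SE 0.18, unadjusted p = 0.000138), with an adjusted p of 0.271 from edgeR, and *Acod1* was the one member of the 8 with an unadjusted p under 0.05. Leaving aside fits with a replicate block, it passed with DESeq2 (adjusted p = 7.91e-07) and without the filter on low counts (5.23e-06). With edgeR 0% of all genes tested passed the test of this difference, 1045 (5.93%) had an unadjusted p under 0.05 and the smallest adjusted p was 0.163. DESeq2 called 43.

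*Ass1* in resting cells was at 987 ± 105 normalised counts (SD, n = 2) in *Ncoa6*-KO and 590 ± 12.1 in *Ncoa6*-sufficient BMDMs, a log2 fold change of 0.74 (SE 0.123, 95% interval 0.47 to 1.01, edgeR adjusted p = 0.0171). The call was lost without *Ncoa6*-sufficient replicate 1 (adjusted p = 0.231) or 2 (0.0928) in medium and without *Ncoa6*-KO replicate 2 in medium (0.0766), with log2 fold changes of 0.72, 0.76 and 0.63. With LPS + MSU *Ass1* was at 2894 ± 465 and 2115 ± 94.9, and the log2 fold change of 0.45 (SE 0.119, 95% interval 0.19 to 0.71) did not pass (adjusted p = 0.066). Leaving aside fits with a replicate block, it passed without *Ncoa6*-KO replicate 1 with LPS + MSU (0.59, adjusted p = 0.0396), without *Ncoa6*-KO replicate 2 in medium (adjusted p = 0.0469), without the filter on low counts (adjusted p = 0.0017) and with library totals (0.53, adjusted p = 0.0445).

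The other members had knockout effects that did not pass the test in the fit without a replicate block, from which the intervals come. With LPS + MSU, *Nos2* stood at -0.27 on the log2 scale (95% interval -0.63 to 0.10, edgeR adjusted p = 0.459) and *Gch1* at -0.22 (-0.42 to -0.01, adjusted p = 0.261), and in both the knockout libraries lay below the *Ncoa6*-sufficient ones. *Arg2* stood at 0.49 (-0.69 to 1.67), *Odc1* at 0.02 (-0.44 to 0.49) and *Sat1* at -0.02 (-0.27 to 0.22). In medium alone, *Gch1* stood at -0.15 (-0.38 to 0.07), *Odc1* at -0.13 (-0.59 to 0.33), *Sat1* at 0.02 (-0.22 to 0.27) and *Arg2* at -0.71 (-2.17 to 0.76). The resting counts of *Nos2* (summed 4 in *Ncoa6*-KO and 11 in *Ncoa6*-sufficient BMDMs) gave a ratio of 0.352 with a 95% counting interval of 0.0817 to 1.19. Libraries of the genotypes did not overlap for 4 members in medium and 5 with LPS + MSU, where 43.1% and 47.4% of all genes tested did not overlap. *Arg1* was among the 4 in medium, with 2 and 0 counts in *Ncoa6*-KO against 2 and 2 in *Ncoa6*-sufficient BMDMs, and only the scaling separated them.

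**Figure D5:**
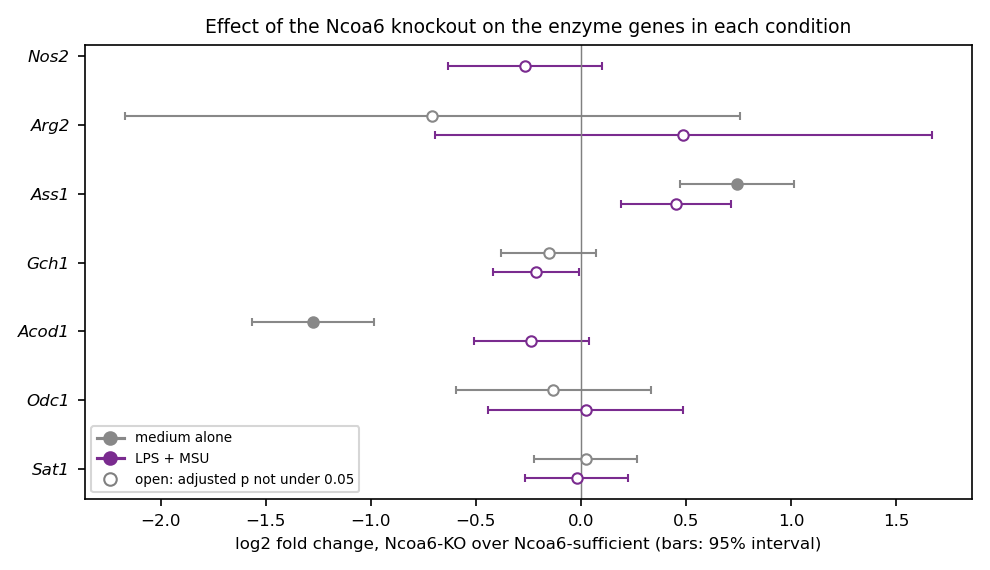
Log2 fold change of *Ncoa6*-KO over *Ncoa6*-sufficient BMDMs with medium alone (grey) and with LPS + MSU (purple), with points at the edgeR estimate and bars for the 95% interval, filled where the adjusted p is under 0.05. *Acod1* (-1.27) and *Ass1* (0.74) in medium are the filled points. *Arg1* and the resting value of *Nos2* are left out because of their few counts.

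With medium alone edgeR called no gene of the 5 pathway lists, the transcription factors or the alternative activation markers. At an unadjusted p under 0.05 there were 1 of nitric oxide, 3 of transport, 0 of proline, 2 of polyamines, 1 of the citric acid cycle, 2 transcription factors and 3 markers, where 12.8% of all genes tested had such a p, and 2 of the transcription factors were called by DESeq2 and 1 by limma-voom. With LPS + MSU, *Asl* was higher in *Ncoa6*-KO BMDMs by 0.42 on the log2 scale (SE 0.0967, edgeR adjusted p = 0.0396), with 1147 and 1165 normalised counts against 907 and 819. *Slc25a1* was higher by 0.35 (adjusted p = 0.0485). Both calls were lost with DESeq2's size factors in edgeR (0.38 and 0.32 on the log2 scale), with DESeq2 and with limma-voom. The marker *Il4ra*, a receptor chain for IL-4, was lower in *Ncoa6*-KO BMDMs by 0.91 (adjusted p = 0.0152), with 2720 and 2772 normalised counts against 6119 and 4200. *Slc7a2* stood at -0.39 (adjusted p = 0.098). Unadjusted edgeR p-values under 0.05 with LPS + MSU were found for 2 genes of nitric oxide, 3 of transport and 3 of proline. They were also found for 1 of polyamines, 2 of the citric acid cycle, 3 transcription factors and 3 markers, and for 17.4% of all genes tested. Of the 6 transport genes, DESeq2 called 2, limma-voom 0, and edgeR with DESeq2's size factors 1, as lower. Among the transcription factors, *Irf1* stood at -0.52 (adjusted p = 0.103) in medium and at 0.24 with LPS + MSU. Beside the lower *Acod1* and higher *Ass1* of resting knockout cells, the macrophage markers *Lyz2* (-1.01, edgeR adjusted p = 0.0172) and *Cd14* (-0.78, adjusted p = 0.0298) were called lower out of 7 markers. For *Lyz2*, whose locus carries Cre, the insertion itself and a change of the cells cannot be told apart. The part of *Lyz2* and *Cd14* in the differences of *Acod1* and *Ass1* was not tested.

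Genes with patterns most like those of the members were ranked by the root mean square difference of log2 CPM, centred per gene, over the 8 libraries and 8435 genes with a mean log2 CPM of at least 3. Nearest to *Acod1* were the interferon-induced genes *Mx1* (0.267), *Cmpk2* (0.313) and *Oasl1* (0.393). For *Nos2* the nearest were *Il6* (0.941), *Ptgs2* (1.27) and *Il1b* (1.46), and for *Gch1* they were *Setdb2* (0.0816), *Irak2* (0.0821) and *Nfkb2* (0.0845). The flat pattern of *Arg1* lay nearest to *Dclre1c* (0.158), *Plgrkt* (0.177) and *Blnk* (0.182), a likeness that its 0 to 3 counts leave without weight. These distances are descriptions over libraries that mostly differ by the stimulus.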

How the data were processed

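Poly(A) RNA of BMDMs was sequenced with a stranded kit. The authors deposited expected counts per gene, made with STAR 2.7.3a and RSEM 1.3.3 on GRCm38 (tools and versions from the submitters' processing notes), with no normalisation, in 8 libraries of 25281955 to 33673552 counts. RSEM shares out reads that fit several genes, and 6703 of the 50615 genes had a value that was not whole. Counts were rounded and 17625 genes with a sum of at least 10 were fitted over all 4 groups with edgeR 4.0.16 (R 4.3.3; quasi-likelihood, TMM factors 0.766 to 1.29, 4 residual degrees of freedom, two-sided, Benjamini-Hochberg threshold 0.05 over all genes tested). Normalised counts were scaled to a mean effective library of 29332189. Alternatives used DESeq2 1.42.0, limma 3.58.1 (voom), other filters and scalings and each library left out, and library totals were added after seeing the data. The test was checked on simulated counts, drawn separately for each library and without any effect of the replicate number. TPM was computed from merged GENCODE vM21 exons. Genes were named as members, list genes or nearest patterns, and the likeness used genes with a mean log2 CPM of at least 3. The members and lists were chosen with earlier results of these data known. No per-sample column was left out, and replicate numbers were not taken to pair mice in the main model, since no source says so. Some genes of the lists are counted but not reported here by name.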

Additional observations from a re-analysis of the deposited data

How the results depend on the processing

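Of the comparisons of single members between the main settings and each alternative, 598 kept direction and side of the threshold, 3 lost a call, 35 gained one and 28 changed sign. The members called for the knockout in medium numbered 1 to 2 with a library left out, 1 without *Ncoa6*-sufficient replicate 1, *Ncoa6*-sufficient replicate 2 or *Ncoa6*-KO replicate 2 in medium. With LPS + MSU 0 became 1 without the filter and with library totals and 0 to 1 with a library left out, and the difference of the effects went from 0 to 1 with DESeq2 and without the filter. With the replicate number as a block across all groups, the members called were 1 for the knockout with LPS + MSU and 1 for the difference, and with a block within each genotype 2 and 1. The block moved the calls of all genes from 331 to 1023 and 1530 in medium, from 632 to 1532 and 2000 with LPS + MSU and from 0 to 86 and 444 for the difference. No source says what the numbers stand for, and there are 2 per group. Deviations of same-numbered libraries from their group means correlated in all 6 pairs of groups, at 0.193 to 0.525 over 8435 genes. Genes are not independent replicates, and what lies behind these correlations was not tested. With the block within genotypes edgeR called *Odc1* lower in *Ncoa6*-KO BMDMs in medium (-0.50, adjusted p = 0.000433) and with LPS + MSU (-0.37, adjusted p = 0.00865), and *Acod1* lower with LPS + MSU (-0.29, adjusted p = 0.02). With the block across groups it called *Ass1* higher with LPS + MSU (0.44, adjusted p = 0.0107). The difference of the effects of *Acod1* passed with both blocks (edgeR adjusted p = 0.00891 across groups and 5.95e-07 within genotypes).

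The sign turned as follows, and the cause was not tested. For LPS + MSU, *Odc1* had -0.30 and -0.11 with library totals. For the knockout with LPS + MSU, *Arg1* had 0.64 with the block within genotypes and 0.035 with totals. *Odc1* had -0.0172 with DESeq2, -0.0175 with its size factors in edgeR, -0.0224 with limma-voom, -0.011 with the block across groups and -0.37 with that within genotypes, and *Sat1* had 0.0961 and 0.0502 with the block within genotypes and with totals. With a library left out, the knockout in medium ran from -2.18 to 0.76 for *Nos2*, -2.02 to 0.0822 for *Arg2*, -0.42 to 0.11 for *Odc1* and -0.0647 to 0.10 for *Sat1*. With LPS + MSU it ran from -0.31 to 0.26 for *Arg1*, -0.39 to 0.32 for *Odc1* and -0.10 to 0.0428 for *Sat1*. The difference ran from -1.03 to 1.92 for *Nos2*, -0.15 to 0.0156 for *Gch1*, -0.30 to 0.44 for *Odc1*, -0.16 to 0.0437 for *Sat1* and -0.28 to 0.0494 for *Ncoa6*. With the longest transcript as length, 2, 5, 2 and 2 members took another place in the order of levels in resting *Ncoa6*-sufficient, stimulated *Ncoa6*-sufficient, resting *Ncoa6*-KO and stimulated *Ncoa6*-KO BMDMs.

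Without the filter, 1152 genes were called in medium, 1611 with LPS + MSU and 269 for the difference, against 331, 632 and 0. With 1 library left out, the calls in medium went down to 22 and those with LPS + MSU to 49, and the calls for the difference went up to 16. Only the 4 libraries compared gave 347 calls with LPS + MSU. *Arg1*, *Arg2* and resting *Nos2* had at most 22 counts in a library, and depth limits what can be seen there. With 2 libraries per group, small knockout effects on the stimulated enzymes cannot be told from 0.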
